A study of Mus musculus with 5 samples.

Results

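The lysosomal cathepsins are the proteases that break down protein inside the lysosome, and 10 of their genes (Ctsa, Ctsb, Ctsc, Ctsd, Ctsf, Ctsh, Ctsl, Ctso, Ctss and Ctsz) were followed in mouse pancreatic cancer cells sorted by autophagy flux. They were taken by gene symbol from the 52459 rows of the deposited expression table, where each symbol had 1 row, and 9 of them were among the 11397 genes tested. The cells were of the HY15549 line on a C57BL/6 strain background and carried the GFP-LC3-RFP reporter, in which the balance of green and red fluorescence tracks autophagy flux. Organoids were grown in the basement membrane gel Matrigel in DMEM with serum, dissociated, and sorted by the GFP/RFP ratio. AThi, the autophagy-high population, gave 2 libraries, and ATlo, the autophagy-low one, gave 3. Both populations share the line, the strain background, the reporter, the culture and the dissociation, and differ by the sorting gate, so the data describe 1 cell line. The series calls the samples biological replicates. Whether each came from its own culture is not stated in the labels used here, and the p-values then cover only the spread of these libraries, which may be technical.

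Autophagy encloses cytoplasmic material in a vesicle that fuses with the lysosome, where cathepsins and other acid hydrolases degrade the contents. Cathepsins are made as inactive precursors in the endoplasmic reticulum, receive mannose 6-phosphate in the Golgi, are carried to endosomes by sorting receptors, and become active when their propeptide is removed in the acidic lysosome. Of the 10 genes, 8 encode papain-type cysteine proteases. Ctsd encodes an aspartic protease and Ctsa a serine carboxypeptidase. Among the cysteine enzymes, cathepsins L, S and F cut within proteins, whereas cathepsins C and H trim from the amino end, cathepsin Z (also called X) from the carboxyl end, and cathepsin B acts both within proteins and from the carboxyl end. Expression of many lysosomal genes is driven by the MiT/TFE transcription factors, which bind a promoter element built around the letters CACGTG.

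The promoters of the cathepsin genes were read for that element first. RefSeq promoter sequences on GRCm38.p6, which run from 250 bases before to 50 bases after an annotated start, matched 8 of the 10 genes (not Ctsb and Ctsh), with 9 windows in all since Ctsa has 2 starts. The letters CACGTG, which read the same on both strands, occurred in windows of 4 genes, namely Ctsa, Ctsd, Ctsf and Ctsl. The stretches around each copy upstream of the RefSeq start follow, 5′ to 3′ on the gene's strand, with CACGTG in capitals. The GENCODE M21 annotation has further starts, so that 24 of the 24 bases shown for Ctsa, 30 of 30 for the Ctsd copy at -98 and 15 of 30 for Ctsl are exonic in some transcript of the gene. The Ctsf stretch and the Ctsd copy at -245 hold 0 exonic bases.
Ctsf, chr19:4855048-4855129, plus strand, CACGTG from position -79 relative to the start: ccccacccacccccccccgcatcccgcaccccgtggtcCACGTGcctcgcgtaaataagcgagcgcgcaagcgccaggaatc
Ctsd, chr7:142387908-142387937, minus strand, CACGTG from position -98: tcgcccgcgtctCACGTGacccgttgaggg
Ctsd, chr7:142388055-142388077, minus strand, CACGTG from position -245: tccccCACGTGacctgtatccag
Ctsa, chr2:164833749-164833772, plus strand, CACGTG from position -12 of the downstream start: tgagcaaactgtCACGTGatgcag
Ctsl, chr13:64370739-64370768, minus strand, CACGTG from position -236: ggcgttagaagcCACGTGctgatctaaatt
The longer form TCACGTG, searched on both strands and containing CACGTG, was present in windows of 2 of these genes, Ctsd and Ctsa. For comparison, CACGTG was found in 7.15% of all 32851 promoter windows and in 10.2% of the 10959 windows of tested genes. TCACGTG was found in 6.13% of the windows of tested genes. These matches describe letters in a window and do not show a binding site.

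The unit is FPKM, which counts fragments relative to length and sequencing depth. The length used for each gene is not given in the sources used here. Levels, sums, shares and orders of different genes therefore rest on a length that could not be checked. Implied depths ranged from 27.6 to 45.0 M reads (M, 1e6), and the libraries detected 19151 to 20412 genes. Across tested genes, which are not independent replicates, Pearson's r on log2 values was at least 0.990 within a group and 0.926 to 0.948 across groups. The labelled cell type was checked against markers: of 11 epithelial and ductal markers, 10 were at 1 FPKM or more in all libraries, with Krt19 at 1395 FPKM or more, while Cldn4 was at 0.15 FPKM or less. In bulk values such as these, a change in the number of cells expressing a gene and a change in RNA per cell cannot be told apart.

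The cathepsin genes moved in different directions between AThi and ATlo. In AThi, 4 of the 9 tested genes were higher (Ctsf, Ctsa, Ctso and Ctsb), 2 were lower (Ctsc and Ctsh), and Ctsd, Ctsl and Ctsz did not pass the test. Ctss was below the filter. The test was limma on log2(FPKM + 0.5), in which a gene was called at a Benjamini-Hochberg adjusted p under 0.05 over all 11397 genes. Of those genes 51.6% were called, 22.2% higher and 29.4% lower in AThi, and the 6 calls among 9 cathepsin genes are to be read against that share. The median log2 fold change of the 9 genes was 0.13, against -0.03 over all tested genes. The library values of AThi and ATlo did not overlap in 7 of the 9 genes, which was the case for 70.3% of all tested genes.

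**Figure D1:**
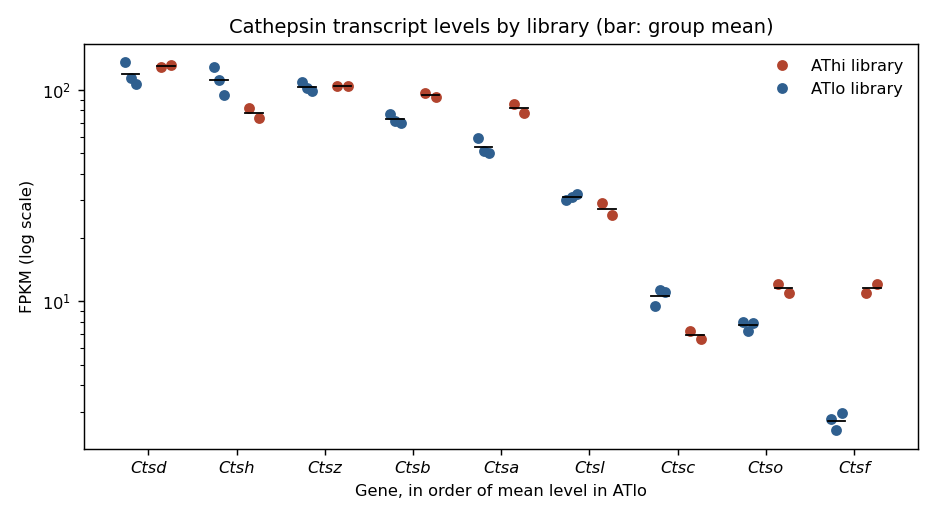
FPKM on a log axis of the 9 tested cathepsin genes, ordered by mean level in ATlo, with a point for each library (red, 2 AThi; blue, 3 ATlo) and a bar at the group mean. The AThi points of Ctsf lie at 11.0 and 12.1 FPKM, well above the ATlo points at 2.45 to 2.95 FPKM, whereas the points of Ctsd and Ctsz overlap between groups.

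Among the cysteine proteases that cut within proteins, Ctsf changed most. Cathepsin F is known for a long propeptide that includes a cystatin-like domain. Ctsf was at 11.0 and 12.1 FPKM in AThi and at 2.76, 2.45 and 2.95 FPKM in ATlo. Both AThi values were therefore above every ATlo value. The ratio of the group means was 4.24, and the log2 fold change was 1.90 ± 0.09 (SE), with a 95% interval of 1.68 to 2.13 and a limma adjusted p of 3.82e-05. Of the 11397 tested genes, 32 had a higher log2 fold change than Ctsf. The gene lies on chromosome 19 (4855130 to 4860918, plus strand, GRCm38), and shares no annotated exonic base with another gene. At its exonic length of 5041 nucleotides, the ATlo values correspond to between 444 and 586 reads and the AThi values to 1524 and 2746 reads, so counting error is small beside the difference.

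Ctsl, which encodes the widely expressed endopeptidase cathepsin L, did not follow Ctsf. It was at 29.1 and 25.6 FPKM in AThi and at 30.1, 31.1 and 32.1 FPKM in ATlo. The groups did not overlap, but the log2 fold change of -0.18 ± 0.07 (SE) did not pass the threshold, with a limma adjusted p of 0.0739 and a 95% interval of -0.36 to -0.01. It did not pass in 12 of the 13 alternative fits either. The exception was the fit without AThi replicate 1, with a log2 fold change of -0.28. Without AThi replicate 2 the log2 fold change was -0.09. The FPKM of Ctsl was 10.9 to 12.7 times that of Ctsf in the ATlo libraries and 2.65 and 2.11 times in the AThi libraries. Ctsl lies on chromosome 13 (64359337 to 64370890, minus strand) and shares 1742 annotated exonic bases with an antisense gene and 395 with a processed pseudogene, neither of which has a row in the table, so its value is uncertain.

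Ctss encodes cathepsin S, an endopeptidase of antigen-presenting cells that processes the invariant chain of MHC class II. It was listed at 0 FPKM in 4 libraries and at 0.02 FPKM in AThi replicate 2, which corresponds to about 1 read. A count of 3 reads would correspond to 0.0491 to 0.0801 FPKM for its length of 1358 nucleotides, so its transcript was not detectable above that limit, which covers counting error only. Cd74, the gene of the invariant chain, was also below the filter, but above 0 in every library. It was at 0.46 and 0.43 FPKM in AThi and at 0.17, 0.32 and 0.4 FPKM in ATlo. The Ctss gene lies on chromosome 3 (95526786 to 95556403, plus strand).

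Ctso encodes cathepsin O, a cysteine protease whose substrates are less well known. It was at 12.1 and 11.0 FPKM in AThi and at 7.99, 7.25 and 7.89 FPKM in ATlo, without overlap. The log2 fold change was 0.55 ± 0.08 (SE), with a limma adjusted p of 0.00123. Ctso and Ctsf thus had like levels in AThi, 11.6 ± 0.785 and 11.5 ± 0.82 FPKM (SD, n = 2), whereas in ATlo Ctso, at 7.71 ± 0.401 FPKM (SD, n = 3), was above Ctsf in all 3 libraries. The Ctso gene lies on chromosome 3 (81932601 to 81956725, plus strand).

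Of the cysteine enzymes that trim protein ends, Ctsb rose. Its product, cathepsin B, is an abundant lysosomal protease with an occluding loop that gives it carboxydipeptidase activity. Ctsb was at 96.6 and 92.1 FPKM in AThi and at 76.7, 71.3 and 69.8 FPKM in ATlo. No ATlo library reached the lower AThi value, and the log2 fold change was 0.38 ± 0.07 (SE), with a limma adjusted p of 0.00388. Ctsb lies on chromosome 14 (63122462 to 63145923, plus strand) and shares 774 exonic bases with Fdft1, the squalene synthase gene on the other strand. The log2 fold change of Fdft1 was -1.03 ± 0.13 (SE). The strand setting of the counting is not given in the sources used here, so reads of the shared bases cannot be told apart and the Ctsb value is uncertain to that extent.

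Ctsc and Ctsh, whose products remove residues from the amino end of proteins, were both lower in AThi. Cathepsin C is a dipeptidyl peptidase known for activating granule proteases of leukocytes. Ctsc was at 7.22 and 6.62 FPKM in AThi and at 9.53, 11.3 and 11.1 FPKM in ATlo, with no overlap. Its log2 fold change was -0.58 ± 0.09 (SE), with a limma adjusted p of 0.00208. In the same libraries Ctsf was below Ctsc in ATlo, at 0.217 to 0.29 times its level, and above it in AThi, at 1.52 and 1.83 times. Ctsc lies on chromosome 7 (88278085 to 88310888, plus strand).

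Cathepsin H is an aminopeptidase that keeps a short piece of its propeptide in the active site. Ctsh was at 82.2 and 73.9 FPKM in AThi and at 129, 112 and 94.5 FPKM in ATlo. The groups did not overlap, though the ATlo libraries spread widely, with 112 ± 17.2 FPKM (SD, n = 3) against 78.1 ± 5.9 FPKM (SD, n = 2) in AThi. The log2 fold change was -0.50 ± 0.13 (SE), with a limma adjusted p of 0.0157. The call was kept in 11 of the 13 alternative fits. It was lost without AThi replicate 2, where the log2 fold change was -0.43, and with no filter on low values, where the limma adjusted p was 0.0645. Ctsh lies on chromosome 9 (90054152 to 90076089, plus strand).

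Ctsz, the gene of the carboxypeptidase cathepsin Z, had nearly the same level in all libraries. It was at 104.6 FPKM in both AThi libraries and at 109, 102 and 98.7 FPKM in ATlo, so that the AThi values lay within the ATlo range. The log2 fold change was 0.02 ± 0.07 (SE), with a 95% interval of -0.14 to 0.18 and a limma adjusted p of 0.807. Ctsz lies on chromosome 2 (174427493 to 174439039, minus strand).

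Of the genes outside the cysteine class, Ctsa rose and Ctsd did not pass. Cathepsin A is a carboxypeptidase that also holds beta-galactosidase and neuraminidase 1 in a protective complex. Ctsa was at 86.0 and 77.7 FPKM in AThi and at 59.2, 51.2 and 50.1 FPKM in ATlo, with no overlap. The log2 fold change was 0.61 ± 0.09 (SE), with a limma adjusted p of 0.00177. The gene lies on chromosome 2 (164832873 to 164841032, plus strand) and shares 324 and 495 exonic bases with Neurl2 and Pltp on the other strand. Neurl2 was at 1.36 FPKM or less and Pltp at 2.23 FPKM or less in all libraries, far below Ctsa.

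Ctsd encodes cathepsin D, the main aspartic protease of lysosomes, and had the highest mean FPKM of the 10 genes in both groups. It was at 128 and 130.5 FPKM in AThi and at 135, 114 and 107 FPKM in ATlo. The highest value of all was in ATlo replicate 1, and the groups overlapped. The log2 fold change of 0.13 ± 0.10 (SE) had a limma adjusted p of 0.328 and a 95% interval of -0.12 to 0.38. It did not pass in 12 of the 13 alternative fits either. The exception was the fit without ATlo replicate 1, with a log2 fold change of 0.23 and a limma adjusted p of 0.0378. Without ATlo replicate 3 the log2 fold change was 0.06. Ctsd lies on chromosome 7 (142375911 to 142388038, minus strand) and shares 808 exonic bases with Gm49369 on the same strand, a gene with no row in the table, so its value is uncertain.

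**Figure D2:**
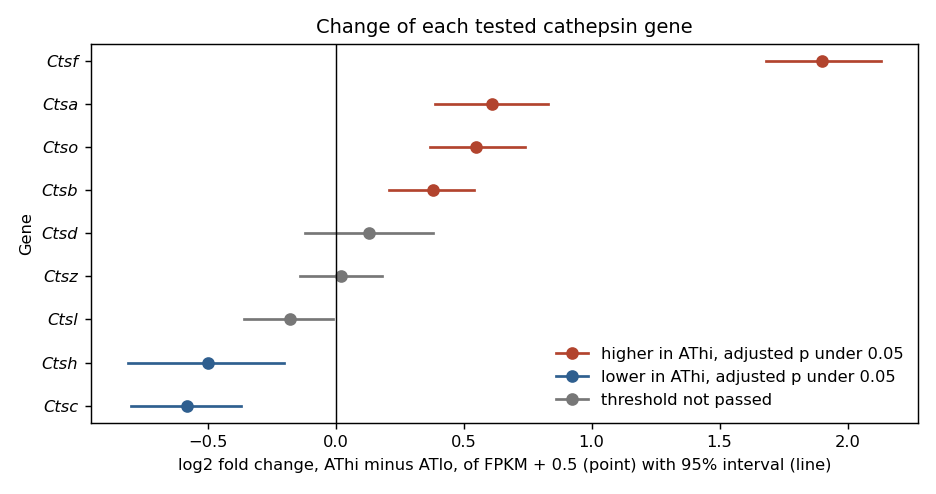
Log2 fold change of each tested cathepsin gene, AThi minus ATlo, on the log2(FPKM + 0.5) scale (points) with the 95% interval from limma (lines), red or blue where the adjusted p was under 0.05 and grey otherwise. Ctsf stands at 1.90, the other 3 genes that rose lie between 0.38 and 0.61, and Ctsh and Ctsc lie at -0.50 and -0.58.

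The summed FPKM of the cathepsin transcripts overlapped between the groups, while the shares of several genes in that sum did not. The 10 genes together were at 557 and 534 FPKM in AThi and at 559, 502 and 474 FPKM in ATlo, so the groups overlapped. The 8 cysteine cathepsins summed to 343 and 326 FPKM in AThi and to 365, 337 and 317 FPKM in ATlo, which overlapped as well. As a share of the summed FPKM of the library, the 10 genes held 0.191 and 0.185% in AThi and 0.185, 0.17 and 0.161% in ATlo, so that the lower AThi and the highest ATlo library were level to 3 digits. Ctsd and Ctsz held 22.6 to 24.4% and 18.8 to 20.8% of the sum of the 10 genes in every library. Ctsh held 14.8 and 13.8% in AThi against 23.1, 22.2 and 19.9% in ATlo. Ctsa held 15.5 and 14.5% against 10.6, 10.2 and 10.6%, and Ctsb 17.4 and 17.2% against 13.7, 14.2 and 14.7%. Ctsf made up 1.97 and 2.27% of the sum in AThi and 0.488 to 0.622% in ATlo, so the largest fold change concerned a small share of the summed FPKM. These sums and shares are descriptions, with no test.

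**Figure D3:**
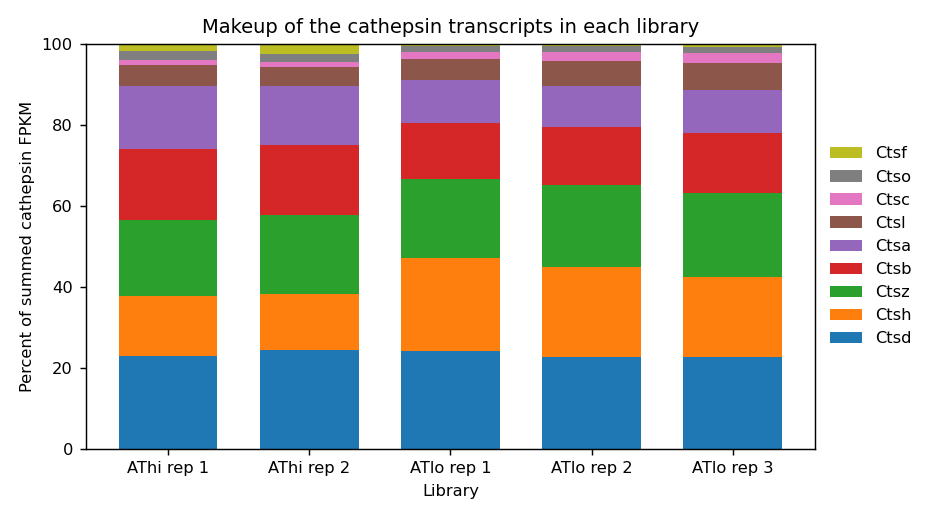
Share of each cathepsin gene in the summed FPKM of the 10 genes, in percent, for each of the 5 libraries (stacked bars; Ctss, at 0.00374% or less, is not drawn). The Ctsh segment is narrower in both AThi libraries (14.8 and 13.8%) than in the ATlo libraries (19.9 to 23.1%), and the Ctsa and Ctsb segments are wider.

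The order of the levels differed between the groups. In ATlo it ran from Ctsd through Ctsh, Ctsz, Ctsb, Ctsa, Ctsl, Ctsc, Ctso and Ctsf to Ctss, where Ctsd and Ctsh, and Ctsh and Ctsz, overlapped in their library ranges. In AThi it ran Ctsd, Ctsz, Ctsb, Ctsa, Ctsh, Ctsl, Ctso, Ctsf, Ctsc and Ctss, with overlapping ranges of Ctsa and Ctsh and of Ctso and Ctsf. Ctsh thus moved from rank 2 in ATlo to rank 5 in AThi, and Ctsf passed Ctsc. The ratio of Ctsb to Ctsh was 1.17 and 1.25 in AThi and 0.595, 0.638 and 0.739 in ATlo.

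The genes whose profile over the 5 libraries was most like that of Ctsf, by the Euclidean distance of centred log2 values, were Vpreb3, Hnf1aos1 and Ugt2b35, at distances of 0.126, 0.143 and 0.219. Their log2 fold changes were 1.98, 1.81 and 1.76, which are like that of Ctsf by the choice itself, since the distance includes the group difference. Closest to Ctsc, the gene with the largest fall, were Hmgn1, U2af1 and Palb2, at distances of 0.0393, 0.0438 and 0.0539. Within a distance of 0.5 lay 3253 tested genes for Ctsc and 28 for Ctsf, so the nearest genes of Ctsc are 3 of many.

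Other genes that act with the cathepsins were followed in lists, whose counts stand beside the 51.6% called, 22.2% higher and 29.4% lower over all tested genes. Of the 5 genes of cathepsin partners and processing, 4 were tested. Rises were called in 3 of them and falls in 0, and the median log2 fold change was 0.35. Lgmn encodes legumain, the protease that converts several cathepsins to their mature form, and rose to 47.2 ± 3.55 FPKM (SD, n = 2) in AThi, against 34.5 ± 2.79 FPKM (SD, n = 3) in ATlo. Psap, the gene of prosaposin, which cathepsin D cleaves, rose by 0.46 ± 0.08 (SE) on the log2 scale. Glb1, the gene of the beta-galactosidase that cathepsin A protects, rose by 0.25 ± 0.08 (SE), a call that was lost in 5 of the 13 alternative fits, 4 of them with a library left out (AThi replicate 1, AThi replicate 2, ATlo replicate 2 or ATlo replicate 3). Neu1, the gene of its other client, was at 62.7 and 63.4 FPKM in AThi and at 68.4, 58.0 and 56.7 FPKM in ATlo and did not pass, with a limma adjusted p of 0.66.

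Of 5 lysosomal peptidase genes outside the cathepsin family, all were tested, and 3 of 5 were called, beside 51.6% of all genes, with 2 rises, 1 fall and a median log2 fold change of 0.10. Cpq, which encodes carboxypeptidase Q, was at 27.1 and 31.7 FPKM in AThi and at 9.47, 8.29 and 9.31 FPKM in ATlo, a log2 fold change of 1.65 ± 0.09 (SE). Tpp1, the tripeptidyl peptidase gene, rose by 0.42 ± 0.07 (SE). Scpep1, which encodes a serine carboxypeptidase related to cathepsin A, changed by -0.30 ± 0.09 (SE), with a limma adjusted p of 0.0329. Its call was lost in 4 alternative fits, namely with no filter on low values and without AThi replicate 2, ATlo replicate 1 or ATlo replicate 2.

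All 16 genes of the list for sorting of lysosomal enzymes were tested, with 6 rises, 3 falls and a median log2 fold change of 0.15. The 9 calls among 16 genes are again to be read against the 51.6% over all genes. Sort1, the gene of sortilin, a receptor that carries some lysosomal proteins without mannose 6-phosphate, was at 5.68 and 6.36 FPKM in AThi and at 2.17, 2.49 and 2.01 FPKM in ATlo. Its log2 fold change was 1.26 ± 0.11 (SE). Igf2r, the larger mannose 6-phosphate receptor, rose by 0.53 ± 0.06 (SE) and M6pr, the smaller one, by 0.20 ± 0.07 (SE), with limma adjusted p-values of 0.000557 and 0.0487. The call of M6pr lies at the threshold and was lost in 7 of the 13 alternative fits, that of Igf2r in 0. Cln6, whose product helps lysosomal enzymes leave the endoplasmic reticulum, rose by 0.57 ± 0.08 (SE). The 3 genes that fell, Ap1s2, Ap1s1 and Ap1m1, encode subunits of the AP-1 adaptor, which packs receptors into vesicles at the Golgi, and changed by -0.61, -0.55 and -0.52. The call of Ap1s2 was lost in 3 alternative fits, with no filter on low values and without AThi replicate 2 or ATlo replicate 3. In place of 6 rises, the list had 3 with no filter on low values, 3 without ATlo replicate 2 and 3 without ATlo replicate 3. The share called over all genes was lower in these fits as well, at 22.9, 41.1 and 45.2%.

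Of 9 genes of cathepsin inhibitors, 3 were tested, with 0 rises, 1 fall and a median log2 fold change of -0.19. Cst3, the gene of the secreted inhibitor cystatin C, was at 288 and 284 FPKM in AThi and at 293, 263 and 235 FPKM in ATlo, with a limma adjusted p of 0.342. Cstb, which encodes the cytosolic stefin B, was at 90.2 and 85.7 FPKM against 106, 105 and 90.9 FPKM, with a limma adjusted p of 0.103. Without ATlo replicate 3 it was called lower, with an adjusted p of 0.0332. Serpinb6a, the gene of an intracellular serpin, changed by -0.46 ± 0.06 (SE). It was the only fall called in the main fit, where neither Cst3 nor Cstb passed. Whether the product of Serpinb6a inhibits any of the cathepsins followed here was not tested. The summed level of Cst3 and Cstb was 1.10 and 1.14 times that of the 8 cysteine cathepsins in AThi and 1.03 to 1.09 times in ATlo.

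Of 13 further cathepsin family genes, 12 were below the filter, among them the placental group and the leukocyte genes Ctsg and Ctsw. The exception, Ctse, encodes cathepsin E, an endosomal aspartic protease known from the stomach and from pancreatic tumours, and is named here after its values were seen. It was at 393 and 373 FPKM in AThi and at 454, 455 and 409 FPKM in ATlo, between 2.86 and 4 times the level of Ctsd in the same library. The groups did not overlap, and the log2 fold change of -0.20 ± 0.08 (SE) did not pass, with a limma adjusted p of 0.0927.

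Transcripts of the MiT/TFE factors did not pass the test. Of 4 genes, 2 were tested. Tfeb was at 3.91 and 4.06 FPKM in AThi and at 4.17, 3.32 and 3.22 FPKM in ATlo, with a limma adjusted p of 0.322, and Tfe3 was at 5.30 and 6.01 FPKM against 5.52, 5.69 and 5.35 FPKM, with an adjusted p of 0.771. Both overlapped between the groups.

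**Figure D4:**
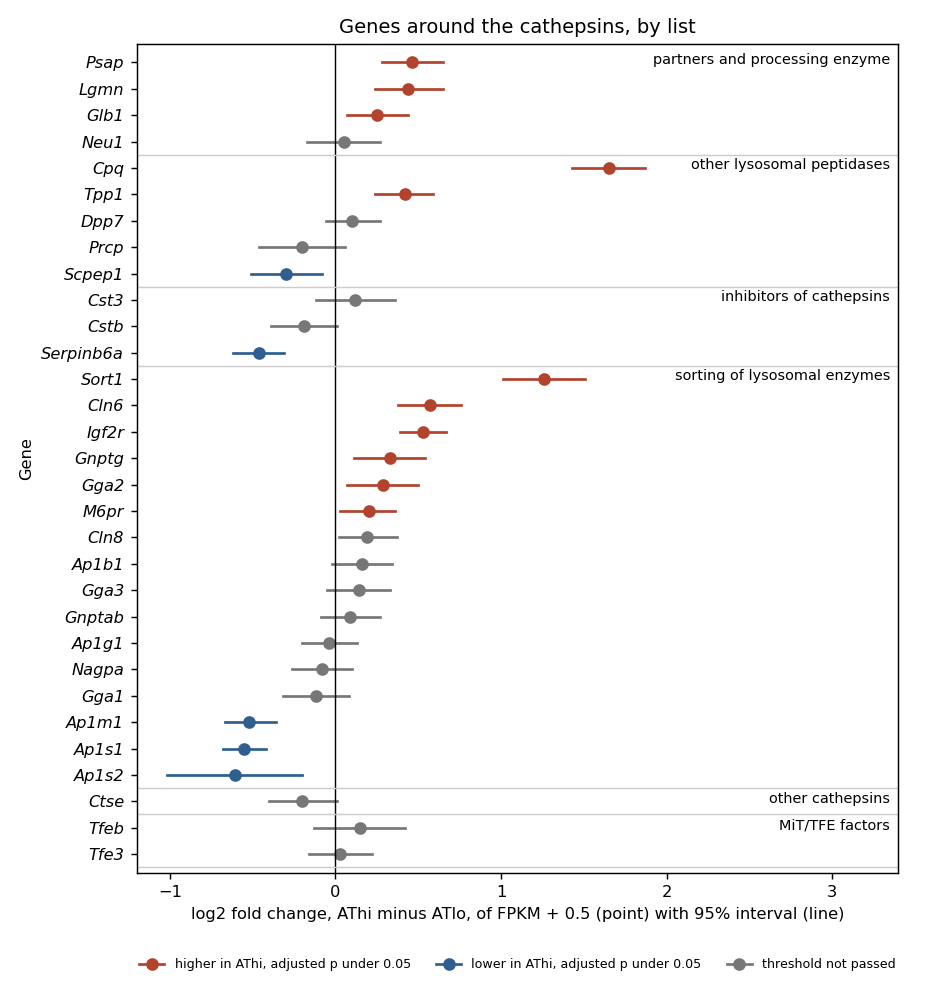
Log2 fold change, AThi minus ATlo, on the log2(FPKM + 0.5) scale (points) with the 95% interval from limma (lines) for the tested genes of 6 lists around the cathepsins, red or blue where the adjusted p was under 0.05 and grey otherwise. Cpq (1.65) and Sort1 (1.26) lie farthest to the right, and the AP-1 subunits Ap1m1, Ap1s1 and Ap1s2 (-0.52 to -0.61) farthest to the left.

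Cathepsins are abundant in macrophages, so markers of other cells were read beside these results. Of 14 leukocyte markers, 13 were under 0.5 FPKM in every library, and Adgre1, C1qa, C1qb, C1qc, Elane and Gzmb were at 0 in all 5. The 14 summed to 9.1 and 15 FPKM in AThi and to 4.47 to 4.91 FPKM in ATlo, and to 0.16 to 0.42 FPKM without Cd68. Cd68, named here after its values were seen, encodes a lysosomal membrane glycoprotein and had a log2 fold change of 1.27 ± 0.19 (SE). All 8 fibroblast and all 4 endothelial markers were under 0.5 FPKM, with sums of 0.11 to 0.17 and of 0.01 to 0.08 FPKM and Col1a2, Dcn, Lum, Thy1 and Kdr at 0. Immediate-early genes, which respond to cell handling, moved with the groups. All 10 were called higher in AThi, beside 22.2% of all tested genes. Btg2, Atf3 and Dusp1 led with log2 fold changes of 2.46, 2.15 and 2.08, while the call of Jun was lost in 3 of the 13 alternative fits. The 10 genes summed to 3464 and 5460 FPKM in AThi against 1463, 1805 and 1094 FPKM in ATlo. Mitochondrially encoded genes held 10.0 and 7.51% of the summed FPKM in AThi and 5.53 to 5.98% in ATlo. The part of either in the cathepsin values was not tested.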

How the data were processed

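Messenger RNA libraries of sorted cells were made with a stranded kit, per the labels' protocols. The authors deposited FPKM in 1 table, rounded to 2 decimals, with a column for each library. Per the submitters' processing notes, the tools were bcl2fastq, STAR, featureCounts and DESeq2, and the genome was mm10 (GRCm38). The sources used here do not give versions, the annotation release, the strand setting, the handling of multi-mapped reads or the FPKM formula. The test was limma 3.58.1 (lmFit, eBayes with trend, R 4.3.3), run two-sided with the sorted group as its only term on log2(FPKM + 0.5), for genes whose mean over the 5 libraries reached 1 FPKM. It had 3 residual and 3.89 prior degrees of freedom and was checked on simulated data. Fold changes on this scale understate changes of low genes.

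Depth was read from 1-exon genes of up to 200 nucleotides, in which the product of FPKM and length is a multiple of what 1 read is worth (within 0.1 of a read for 99.7% of values or more). Read numbers, coordinates (1-based) and exonic lengths rest on GENCODE M21 of GRCm38, so read numbers are approximate. Members and gene lists were chosen with earlier results of these data known. The genes named were the 10 members, set genes of each list, up to 3 called genes per list and direction with the largest change, and the 3 nearest profiles of the members with the largest rise and fall. The alternatives were 2 pseudocounts, 2 filters, 2 scalings, robust moderation, a replicate block, and each library left out.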

Additional observations from a re-analysis of the deposited data

How the results depend on the processing

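In 13 alternative fits, 6 of the 9 tested cathepsin genes stayed on the same side of the threshold and 8 kept their sign throughout. The exceptions in call were Ctsd, Ctsh and Ctsl, and the exception in sign was Ctsz, which was not called in any fit. Ctsf had log2 fold changes of 1.75 to 2.06. With no filter on low values, 1 cathepsin gene was lower in AThi in place of 2, Ctsh being lost. The genes tested rose to 24118 in that fit, and 22.9% of them were called, against 51.6% in the main fit. With a minimum mean of 5 FPKM, 7685 genes were tested and 57.4% of them were called. Of these genes 1683 were higher, in place of 2529 among the 11397 of the main fit. With each library left out in turn, 4 to 5 cathepsin genes were higher and 1 to 3 lower, with the single fall found without AThi replicate 2, and over all genes 1694 to 2483 were higher and 2613 to 3240 lower. Without an AThi library, the other one was assumed to vary like the ATlo libraries.

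The labels number replicates 1 and 2 in both groups, and the sample codes in the titles of same-numbered libraries begin alike, without saying what number or code stands for. With the replicate number as a block, 2579 genes were higher and 3330 lower, and 4 cathepsin genes were higher and 2 lower. ATlo replicate 3 has no AThi library of its number, so the contrast in this fit rests on replicates 1 and 2 only. The log2 fold changes of the cathepsin genes were those found without ATlo replicate 3, such as -0.619 for Ctsh. Among the genes of the lists the block changed 3 calls: Ctse and Cstb were called lower, with adjusted p-values of 0.0269 and 0.0211, and M6pr was no longer called, with an adjusted p of 0.116. The correlation of deviations from the group means was 0.2 for the libraries numbered 1 and 0.297 for those numbered 2. With 2 AThi libraries, their deviations are mirror images of each other. AThi replicate 2 with ATlo replicate 1 thus had -0.2, and AThi replicate 1 with ATlo replicate 2 had -0.297. These values cannot decide whether libraries were paired. Depth limits the reading of Ctss alone among the members, since the others had 444 implied reads or more in every library.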
